A study of Mus musculus with 15 samples.

Results

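Imprinted genes, which are expressed from either the maternally or the paternally inherited copy, were followed here through an in vitro path to the mouse germline. The 45 genes were taken from a list of symbols that names them by imprinted cluster, and all 45 were found among the 55536 genes counted. By the allele normally expressed, 26 are paternal, 15 are maternal and 4 depend on the isoform (Blcap, Gnas, H13 and Inpp5f). They lie in 22 clusters, of which 11 hold several listed genes, and 38 encode proteins while 7 are long noncoding RNAs.

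The RNA came from mouse embryonic stem cells (ESCs), from epiblast-like cells (EpiLCs), and from primordial germ cell-like cells (PGCLCs) collected 2, 4 and 6 days after induction (D2, D4 and D6PGCLCs), with 3 samples in each of the 5 groups. All groups derive from an ESC line with a Stella-eGFP reporter and doxycycline-inducible transgenes for Prdm1, Prdm14, Tfap2c and Nanog (4TF), so the controls carry the transgenes too. ESCs were kept naive with PD0325901, CHIR99021 and LIF, and EpiLCs had 48 h of Activin A and bFGF. PGCLCs were eGFP+ cells sorted from EpiLC aggregates that had received 2 µg/ml doxycycline (Dox), and the labels do not say whether samples of a group came from separate inductions, so that p-values measure the spread between these samples only. As a model the line is a single clone, and selection by the reporter depends on Stella (Dppa3), itself a protector of methylation at imprints.

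Genomic imprinting rests on differentially methylated regions that are set in the parental germlines and kept through embryonic life by maternal and zygotic factors such as ZFP57, TRIM28 and DPPA3. Primordial germ cells erase these marks as they migrate and enter the gonads, so that new ones can be set by sex. Paternally expressed imprinted genes include several promoters of fetal growth, while maternally expressed ones include several restrainers of growth and a set of noncoding RNAs. The counts analysed here sum both alleles, so that a level cannot show which copy was transcribed, and in bulk samples fewer cells of a type and less RNA per cell cannot be told apart.

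Each sample had between 22555021 and 42725681 counts. Levels are CPM, read counts scaled to a common library size with edgeR's trimmed mean of M-values (TMM). D6PGCLC replicate 1 stood apart, with a count in 18061 genes against 21103 to 24343 in the other 14 samples. Of 2118 genes averaging 20 to 60 counts in D4PGCLCs, 161 were listed at 0 in that sample and 0 in D6PGCLC replicates 2 and 3, so results that rest on D6PGCLCs are given without it where it changes them. The marker genes followed the labels. The summed level of 5 naive markers was 2063 to 2131 CPM in ESCs, that of 4 EpiLC markers was 1824 to 1966 CPM in EpiLCs, and that of 6 germ cell markers was 820 to 1317 CPM in PGCLCs, all above the other groups. The germ cell markers include Dppa3, whose reporter was used to sort the PGCLCs, so its part of that sum was fixed by the sort.

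A test across 18090 genes included 43 of the 45. Airn and Rasgrf1 were too low, at 0 to 9 and 0 to 3 counts per sample. A gene was called higher or lower where edgeR's quasi-likelihood test gave an adjusted p under 0.05 and the log2 fold change lay beyond 1. In at least 1 comparison 28 imprinted genes were called. The share of all genes called in at least 1 comparison was not computed, so that count has no background. EpiLCs against ESCs had 16 imprinted genes higher (37.2% of 43, where 14.4% of all genes tested were called higher) and 4 lower (9.3%, against 11.9% of all genes). D2PGCLCs against EpiLCs had 2 higher (background 11.0%) and 12 lower (27.9% of 43, background 14.4%). These comparisons share the EpiLC samples. The median log2 fold change of the imprinted genes was 0.38 in the former and -0.46 in the latter, where the medians of all genes were -0.01 and 0.00.

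Within the PGCLC course few imprinted genes were called. D4PGCLCs against D2PGCLCs had 0 higher (background 2.56%) and 1 lower (H19, background 0.376%), and D6PGCLCs against D4PGCLCs had 0 higher (background 2.29%) and 0 lower (background 0.785%). At an unadjusted p under 0.05, edgeR had 5 higher and 10 lower in the former and 6 higher and 5 lower in the latter. The share of all genes at that p was not computed, so these counts cannot be set against a background. DESeq2 called 0 imprinted genes higher and 1 lower, then 0 and 0. Over all genes it called 487 higher and 85 lower, then 525 and 170. Over the whole course, D6PGCLCs against D2PGCLCs had 3 higher (Dlk1, Meg3 and Ascl2, background 10.9%) and 3 lower (H19, Zdbf2 and Nnat, background 2.75%). Without D6PGCLC replicate 1, or without D2PGCLC replicate 2, 1 imprinted gene was called lower (424 and 448 over all genes). Without D6PGCLC replicate 2 it was 5 (637 over all genes).

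Against the starting cells, D6PGCLCs had 9 imprinted genes higher than ESCs (background 15.8%) and 11 lower (25.6% of 43, background 10.3%). Against EpiLCs they had 1 higher (Trappc9, background 15.9%) and 13 lower (30.2% of 43, background 12.0%). Without D6PGCLC replicate 1, Zdbf2 was no longer called lower than in ESCs (-0.89 on the log2 scale). Magel2 was then called lower than in EpiLCs (-1.04, edgeR adjusted p = 0.0331). The median log2 fold change against EpiLCs was -0.52 for imprinted genes and 0.03 for all genes. The heatmap of levels by sample shows the EpiLC columns as the brightest for many rows. Each of the Dlk1-Dio3 noncoding RNAs is brighter in its ESC and EpiLC samples than in all 9 of its PGCLC samples.

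Where the adjusted p alone was used, with no condition on fold change, more of the 43 were counted. EpiLCs against ESCs then had 21 imprinted genes higher and 8 lower (26.3% and 26.2% of all genes tested), and D2PGCLCs against EpiLCs had 8 higher and 20 lower (27.2% and 26.0%). Between PGCLC days, D4 against D2PGCLCs had 1 higher and 6 lower (7.26% and 4.6%), D6 against D4PGCLCs had 3 higher and 3 lower (6.03% and 6.82%), and D6 against D2PGCLCs had 7 higher and 9 lower (19.5% and 18.2%). D6PGCLCs had 14 higher and 17 lower than ESCs (27.7% and 26.0%), and 8 higher and 21 lower than EpiLCs (30.2% and 27.2%).

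**Figure D1:**
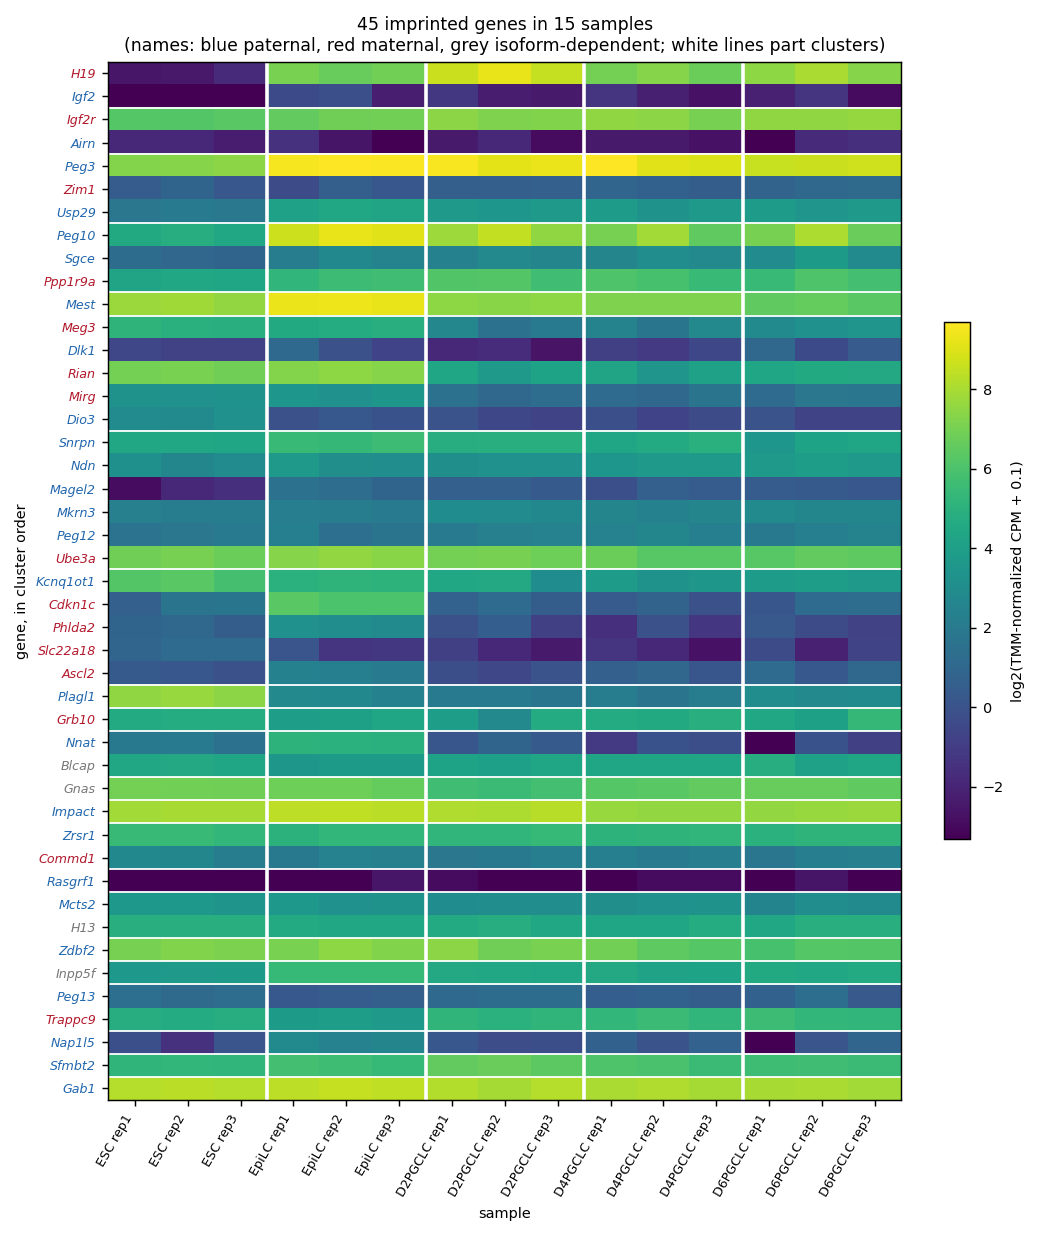
Levels of the 45 imprinted genes (rows, by cluster, names coloured by the allele normally expressed) in the 15 samples (columns), as log2(TMM-normalized CPM + 0.1). H19 is dark in the 3 ESC samples, at 0.073 to 0.201 CPM, and bright in all others, while Plagl1 is bright in ESCs only, at 172 to 201 CPM.

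H19, a maternally expressed noncoding RNA that shares an enhancer and an imprinting control region with Igf2, lies at chr7:142575529-142578143 on the minus strand (mm10, GENCODE M21). It stood at 0.073, 0.0877 and 0.201 CPM in ESCs, which is 2, 2 and 6 counts, and at 133, 102 and 121 CPM in EpiLCs. D2PGCLCs reached 394, 604 and 378 CPM, D4PGCLCs 124, 160 and 109 CPM and D6PGCLCs 175, 263 and 161 CPM. The ESC samples were far below every other sample and D2PGCLCs above every other, with D4PGCLCs overlapping EpiLCs. Against the 10 pooled ESC counts, the ratio of summed counts scaled by library was 946 in EpiLCs (95% interval 514 to 1973, counting error only) and 1639 in D6PGCLCs (891 to 3419). From EpiLCs to D2PGCLCs H19 rose by 1.95 ± 0.19 on the log2 scale (SE, adjusted p = 1.03e-07) and fell to D4PGCLCs by 1.81 on the log2 scale (adjusted p = 1.47e-05). From D2PGCLCs to D6PGCLCs it fell by 1.20 ± 0.19 on the log2 scale (adjusted p = 7.7e-05), a call that was lost without D2PGCLC replicate 2 (-0.95).

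Markers of fibroblasts, the feeder cells on which the line was kept before, moved with the step from ESCs to EpiLCs. The summed level of 8 such markers was 7.72 to 8.41 CPM in ESCs, where Col3a1, Postn, Dcn and Twist2 were at 0, 24.0 to 25.3 CPM in EpiLCs, where Lum was at 0, and 0.919 to 2.19 CPM in PGCLCs. Of the 5 tested, 4 rose in EpiLCs and all 5 fell in D2PGCLCs, and Dcn is itself imprinted. Their part in the EpiLC levels was not tested.

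H19 is also the host of miR-675, shown with its seed (bases 2 to 8) in capitals because the host changed most of all imprinted genes tested. RefSeq (GRCm38.p6) places both mature forms on the minus strand, at chr7:142577112-142577133 and chr7:142577078-142577099.
miR-675-5p: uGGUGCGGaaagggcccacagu
miR-675-3p: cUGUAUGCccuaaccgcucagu
Mature miRNAs were not measured by these libraries, and the Mir675 gene entry was at 0 in all samples.

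Igf2, the paternally expressed growth factor of the same cluster, stayed near the limit of detection. It had 0 counts in every ESC sample, 17, 24 and 3 counts in EpiLCs (0.65, 0.789 and 0.11 CPM), and 1 to 14 counts in each PGCLC sample. Against a floor of 3 counts per library (0.132 CPM), the EpiLC mean was at least 3.93-fold higher than ESCs. EpiLC replicate 3, at 0.11 CPM, lay under that floor. D6PGCLCs, with 5, 14 and 1 counts, were called higher than ESCs too, but the call was lost without D6PGCLC replicate 2 (adjusted p = 0.0723) and without ESC replicate 3 (adjusted p = 0.0517). Against the same floor, the D6PGCLC mean was at least 1.19-fold higher than ESCs, a bound that lies under the fold cutoff. Igf2 shares 62.8% of its exon bases with the gene Gm49394, which had 0 to 15 counts, so that its level is uncertain.

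Igf2r, the maternally expressed receptor that clears IGF2, climbed in steps. ESCs had 75.8, 72.7 and 82.6 CPM and EpiLCs 95, 118 and 122 CPM. D2PGCLCs had 173, 146 and 151 CPM, D4PGCLCs 182, 170 and 130 CPM and D6PGCLCs 185, 182 and 196 CPM. Each of ESCs, EpiLCs and PGCLCs kept to its own range. D6PGCLCs exceeded ESCs by 1.28 ± 0.12 on the log2 scale (adjusted p = 3.17e-08), and the step from EpiLCs to D2PGCLCs was 0.49 ± 0.11 (adjusted p = 0.00147). Airn, the paternal antisense RNA that silences Igf2r in cis in other tissues, had at most 9 counts in any sample.

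Peg3 and Usp29, neighbouring paternally expressed genes that encode a zinc finger protein and a ubiquitin protease, rose in EpiLCs and stayed up. Peg3 had 153, 159 and 174 CPM in ESCs and 716, 823 and 785 CPM in EpiLCs. It had 761, 579 and 639 CPM in D2PGCLCs, 800, 546 and 493 CPM in D4PGCLCs and 385, 403 and 425 CPM in D6PGCLCs. All other samples were above ESCs, and D6PGCLCs were below the earlier PGCLCs. The log2 fold change was 2.26 ± 0.14 from ESCs to EpiLCs (adjusted p = 1.83e-10) and 1.32 ± 0.14 from ESCs to D6PGCLCs (adjusted p = 2.23e-07).

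Usp29 followed at a lower level, with 3.47, 3.9 and 3.58 CPM in ESCs and 17.3, 22.3 and 19.3 CPM in EpiLCs. D2PGCLCs had 13, 11.5 and 12.7 CPM, D4PGCLCs 14.4, 9.82 and 13 CPM and D6PGCLCs 13.9, 10.8 and 12.7 CPM, between those groups with no overlap with either. Its log2 fold change was 2.43 ± 0.17 in EpiLCs and 1.77 ± 0.17 in D6PGCLCs, both against ESCs (adjusted p = 6.21e-10 and 4.86e-08). The Zim3 transcript runs opposite to 14.3% of the Usp29 exon bases. Zim1, the maternally expressed zinc finger gene of the cluster, was not called, at 19 to 92 counts per sample.

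Peg10, a paternally expressed gene of retrotransposon origin needed for the placenta, rose most among the coding paternal genes given in full. ESCs had 23.7, 27.4 and 21.8 CPM against 408, 600 and 541 CPM in EpiLCs. D2PGCLCs had 222, 366 and 181 CPM, D4PGCLCs 131, 236 and 92.4 CPM and D6PGCLCs 131, 272 and 106 CPM. Replicate 2 was the highest sample of every group, and no later sample reached back into the ESC range. The log2 fold change was 4.41 ± 0.38 in EpiLCs against ESCs (adjusted p = 1.29e-08) and 2.81 ± 0.35 in D6PGCLCs against ESCs (adjusted p = 2.27e-06). The fall from EpiLCs to D2PGCLCs, -1.01 ± 0.33 (adjusted p = 0.0139), sat at the threshold and was lost without EpiLC replicate 2 or 3 and without D2PGCLC replicate 1 or 3 (down to -0.81 without the last). The fall to D6PGCLCs was -1.60 ± 0.33 (adjusted p = 0.000399).

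Its divergent neighbour Sgce, which encodes a sarcoglycan and is also paternally expressed, rose without the later decline. ESCs had 2.3, 1.84 and 1.71 CPM, EpiLCs 4.32, 6.71 and 5.5 CPM, and D2PGCLCs 5.15, 6.81 and 5.91 CPM. D4PGCLCs had 5.88, 8.13 and 6.76 CPM and D6PGCLCs 7.78, 13.3 and 7.17 CPM. Every sample outside the ESC group was above it, with log2 differences of 1.50 ± 0.26 for EpiLCs (adjusted p = 8.05e-05) and 2.28 ± 0.26 for D6PGCLCs (adjusted p = 5.54e-07). Ppp1r9a, the maternally expressed neurabin gene nearby, had 19.2, 21 and 21 CPM in ESCs and 37.8, 48.6 and 51.1 CPM in EpiLCs. It had 70.1, 74 and 52 CPM in D2PGCLCs, 69.5, 59.8 and 45.1 CPM in D4PGCLCs and 45.7, 68.4 and 54.7 CPM in D6PGCLCs. It too lay above ESCs in every other sample, by 1.17 ± 0.17 in EpiLCs and 1.47 ± 0.17 in D6PGCLCs on the log2 scale (adjusted p = 1.44e-05 and 9.69e-07).

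Mest (Peg1), a paternally expressed gene for a hydrolase of mesodermal tissues, made a peak in EpiLCs. It had 211, 227 and 193 CPM in ESCs and 635, 645 and 603 CPM in EpiLCs. D2PGCLCs had 175, 166 and 176 CPM, D4PGCLCs 145, 142 and 142 CPM and D6PGCLCs 89.7, 98.5 and 82.5 CPM. No range overlapped another. On the log2 scale Mest rose by 1.58 ± 0.08 in EpiLCs (adjusted p = 8.15e-12), fell by 1.87 in D2PGCLCs (adjusted p = 1.53e-12), and ended at -1.22 ± 0.08 against ESCs (adjusted p = 3.42e-10). Per kilobase of exon it ranked first of the imprinted genes in EpiLCs, at 159 CPM per kb, where Gab1 ranked first in ESCs at 61.0 CPM per kb and H19 in all 3 PGCLC groups. The exons of Copg2 overlap 23.1% of those of Mest on the opposite strand, and Copg2 had 2570 to 9473 counts.

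Searching promoters for TGCCGC, the methylated hexamer bound by ZFP57, put Mest, Meg3, Nap1l5 and Zdbf2 among the genes with a match. RefSeq windows run from 250 bases before to 50 after a start site. On either strand, that is as TGCCGC or GCGGCA, the hexamer was present in 3813 of 32851 windows (11.6%) and in 13 of 56 windows of imprinted genes, several of which overlap, belonging to 12 of the 38 genes with an entry. The median number of CpG dinucleotides was 7 over all windows and 16 over those of imprinted genes. The stretches printed in the accounts of these 4 genes lie upstream of the start and outside annotated exons, with each match in capitals, and a match is not evidence of binding. For Mest it is chr6:30737800-30738049, plus strand, with 2 matches. This stretch lies within the bounds of the counted gene model (chr6:30723547-30748465), before an internal start. Another Mest window, chr6:30733256-30733555, has 0 matches.
Mest: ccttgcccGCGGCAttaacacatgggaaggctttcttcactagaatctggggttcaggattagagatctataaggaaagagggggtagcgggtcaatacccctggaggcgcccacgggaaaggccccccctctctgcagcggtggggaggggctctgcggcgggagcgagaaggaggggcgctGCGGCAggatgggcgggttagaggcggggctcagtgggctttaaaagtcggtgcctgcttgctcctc

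In the Dlk1-Dio3 cluster on chromosome 12, 4 of the 5 genes fell on entry into PGCLCs. Its maternally expressed noncoding RNAs Meg3, Rian and Mirg are thought to be read from the Meg3 promoter as a long unit that carries small RNAs. All 3 fell in D2PGCLCs and remained below ESCs and EpiLCs through day 6. Rian (chr12:109603940-109661716, plus strand) had 123, 135 and 115 CPM in ESCs and 155, 181 and 160 CPM in EpiLCs. It had 19.8, 12.7 and 18.6 CPM in D2PGCLCs, 19.2, 11 and 17.3 CPM in D4PGCLCs and 20.9, 23.4 and 22.9 CPM in D6PGCLCs. All 9 PGCLC samples were far below every ESC and EpiLC sample. The log2 fold change from EpiLCs to D2PGCLCs was -3.27 ± 0.17 (adjusted p = 1.9e-11), and from ESCs to D6PGCLCs -2.47 ± 0.17 (adjusted p = 5.26e-10).

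Meg3 had 35.2, 30.9 and 28.2 CPM in ESCs, 23.9, 26.3 and 28.5 CPM in EpiLCs, and 6.47, 2.9 and 3.99 CPM in D2PGCLCs. D4PGCLCs had 5.49, 3.19 and 6.9 CPM and D6PGCLCs 7.38, 9.38 and 10.9 CPM. Its fall in D2PGCLCs was -2.55 ± 0.26 on the log2 scale (adjusted p = 1.28e-07). The D6PGCLC samples were above all D2 and D4PGCLC samples, a rise from D2PGCLCs of 1.04 ± 0.25 (adjusted p = 0.00352) that was lost without D2PGCLC replicate 2 or 3 or D6PGCLC replicate 3 (0.81 to 0.96). Mirg had 9.89, 9.6 and 9.85 CPM in ESCs and 11.1, 9.6 and 11.8 CPM in EpiLCs. D2PGCLCs had 2.79, 1.9 and 2.43 CPM, D4PGCLCs 2.24, 1.99 and 3.09 CPM and D6PGCLCs 2.23, 3.41 and 3.32 CPM, all below the earlier stages. Its log2 fold change was -2.19 ± 0.22 in D2PGCLCs against EpiLCs and -1.71 ± 0.21 in D6PGCLCs against ESCs (adjusted p = 9.82e-08 and 1.6e-06).

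The Meg3 window that holds the hexamer is chr12:109540746-109540995, plus strand, with the match 190 bases before the start.
Meg3: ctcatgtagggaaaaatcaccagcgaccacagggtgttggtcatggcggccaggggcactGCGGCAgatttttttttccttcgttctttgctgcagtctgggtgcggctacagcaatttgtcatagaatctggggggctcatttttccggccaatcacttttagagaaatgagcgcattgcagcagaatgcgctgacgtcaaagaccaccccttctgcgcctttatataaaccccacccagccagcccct
Within the bounds of these 3 host genes, on the same strand, RefSeq lists 3 mature miRNAs in Meg3, 6 in Rian and 26 in Mirg. A few stand here for the small RNAs of hosts that fell together, with seeds in capitals, and the last pair is the only one among the 35 to share a seed.
miR-770-5p, in Meg3: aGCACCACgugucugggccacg
miR-370-3p, in Rian: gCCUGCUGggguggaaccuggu
miR-134-5p, in Mirg: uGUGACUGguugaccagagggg
miR-410-3p, in Mirg: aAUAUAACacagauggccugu
miR-453, in Mirg: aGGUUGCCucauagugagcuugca
miR-496a-5p, in Mirg: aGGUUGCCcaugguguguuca
Their own levels were not measured here.

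The paternally expressed coding genes of the cluster differed from that course, Dio3 by falling in EpiLCs already. Dlk1 shared the fall in D2PGCLCs but was back in the EpiLC range by D6PGCLCs. Dio3, the deiodinase that inactivates thyroid hormone, had 7.52, 7.41 and 9.38 CPM in ESCs and 0.842, 1.09 and 0.881 CPM in EpiLCs. D2PGCLCs had 0.889, 0.609 and 0.54 CPM, D4PGCLCs 0.819, 0.512 and 0.716 CPM and D6PGCLCs 0.893, 0.528 and 0.539 CPM, so that only ESCs stood apart. It fell by 3.11 ± 0.30 on the log2 scale in EpiLCs (adjusted p = 7.99e-08) and stood at -3.63 ± 0.31 in D6PGCLCs against ESCs (adjusted p = 1.38e-08). Dlk1, the NOTCH ligand homologue that opposes adipogenesis, had at most 76 counts in a sample. ESC samples had 0.584, 0.482 and 0.503 CPM and EpiLC samples 2.1, 0.822 and 0.514 CPM. D2PGCLCs had 0.184, 0.215 and 0.06 CPM, D4PGCLCs 0.455, 0.362 and 0.601 CPM and D6PGCLCs 2, 0.661 and 1.25 CPM, so that the day 2 samples were the lowest. It fell in D2PGCLCs (-2.89 ± 0.64, adjusted p = 0.000885) and rose again by D6PGCLCs (3.07 ± 0.63 against D2PGCLCs, adjusted p = 0.000938). In D6PGCLCs the summed level of 7 primitive endoderm markers, Gata4, Gata6 and Sox17 among them, was 17.9 to 29.6 CPM, with 5.77 to 12.5 CPM elsewhere and 4 of 5 tested higher than in D2PGCLCs, and its part in the day 6 levels was not tested.

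**Figure D2:**
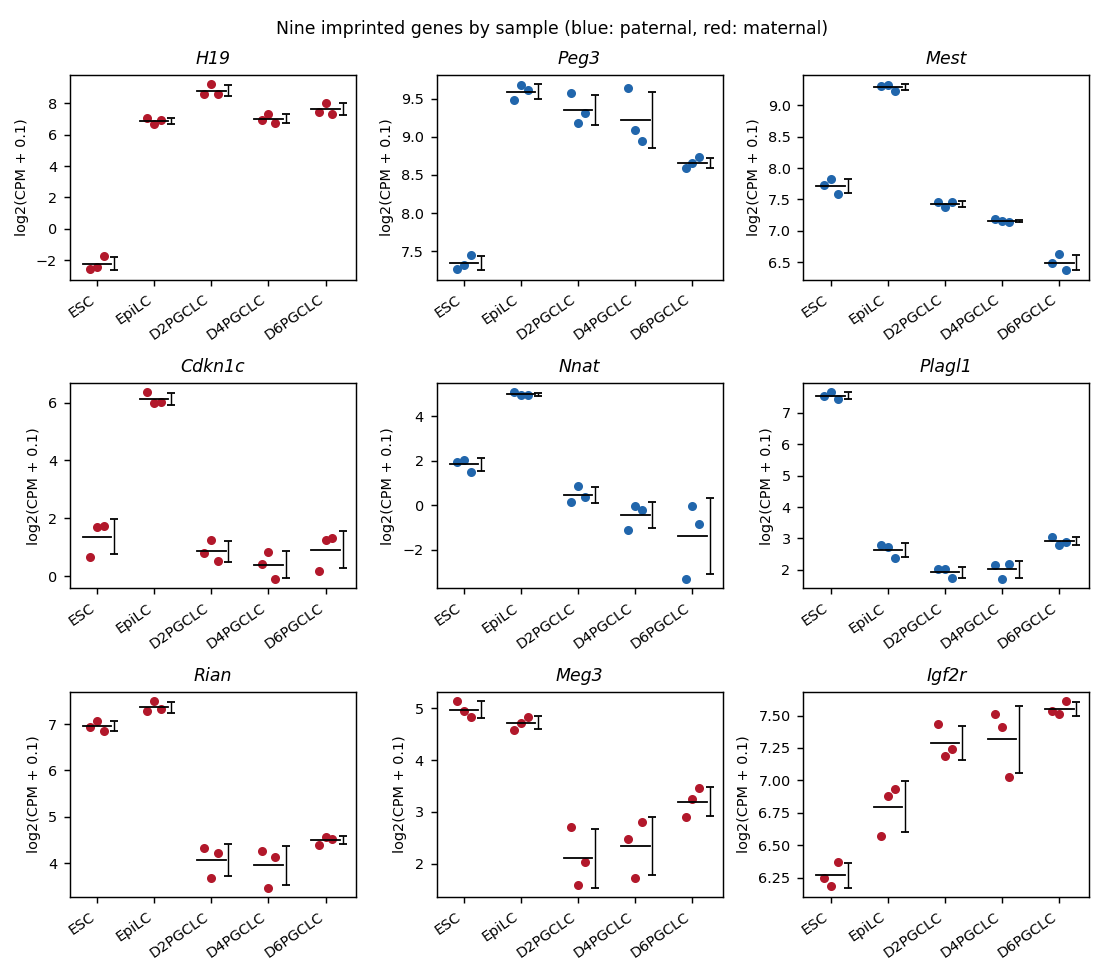
Levels of 9 imprinted genes as log2(CPM + 0.1) by group, with 3 samples per group as points, the mean as a line and the SD as a bar beside it. Mest, Cdkn1c and Nnat peak in EpiLCs, Plagl1 falls after ESCs from 172 to 201 CPM to 5.06 to 6.89 CPM, and Rian and Meg3 step down in D2PGCLCs.

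In the Kcnq1 cluster, the noncoding RNA and Slc22a18 fell in EpiLCs while the 3 other coding genes tested rose. In D2PGCLCs against EpiLCs all 5 genes had log2 fold changes below 0, and 3 of them were called lower. Kcnq1ot1, the paternal antisense transcript under whose control region the domain is silenced, declined along the course. ESCs had 73.9, 81 and 57 CPM, EpiLCs 31.4, 35.3 and 33.6 CPM and D2PGCLCs 22.4, 23.1 and 8.01 CPM. D4PGCLCs had 14.5, 10.3 and 11.8 CPM and D6PGCLCs 14, 14.8 and 12.7 CPM. Each of the first 2 groups was above all samples that followed. It fell by 1.08 ± 0.25 on the log2 scale in EpiLCs (adjusted p = 0.00117, lost without ESC replicate 2 at -0.97) and was at -2.35 ± 0.26 in D6PGCLCs against ESCs (adjusted p = 3.82e-07).

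Cdkn1c, the maternally expressed cyclin-dependent kinase inhibitor p57, had 1.5, 3.16 and 3.18 CPM in ESCs and 81.7, 64 and 65 CPM in EpiLCs. D2PGCLCs were back at 1.62, 2.26 and 1.35 CPM, followed by 1.24, 1.69 and 0.831 CPM in D4PGCLCs and 1.02, 2.25 and 2.38 CPM in D6PGCLCs. The EpiLC samples were far above all others, at a log2 difference of 4.75 ± 0.29 from ESCs (adjusted p = 1.52e-10) and of -5.34 ± 0.30 from EpiLCs to D2PGCLCs (adjusted p = 5.8e-11). An antisense transcript, Gm44732, covers 30.7% of its exon bases and had 0 to 16 counts.

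Phlda2, a maternally expressed restrainer of placental growth, and Ascl2, a transcription factor of the trophoblast, traced the same shape at a lower level. Phlda2 had 1.72, 2.02 and 1.31 CPM in ESCs, 9.49, 8.16 and 7.19 CPM in EpiLCs, 0.827, 1.4 and 0.45 CPM in D2PGCLCs, 0.243, 0.844 and 0.315 CPM in D4PGCLCs, and then 1.16, 0.683 and 0.482 CPM at day 6. Ascl2 had 1.2, 1.05 and 0.838 CPM in ESCs, 5.2, 4.87 and 3.89 CPM in EpiLCs, 0.766, 0.573 and 0.9 CPM in D2PGCLCs, 1.49, 1.84 and 1 CPM in D4PGCLCs, and 2.23, 1.08 and 2.04 CPM at day 6. For both genes EpiLCs were above every other sample. On the log2 scale the rise was 2.31 ± 0.41 for Phlda2 and 2.17 ± 0.34 for Ascl2 (adjusted p = 9.84e-05 and 2.44e-05), and the fall in D2PGCLCs was -3.23 ± 0.43 and -2.63 ± 0.34 (adjusted p = 3.92e-06 and 3.29e-06). Ascl2 then rose to D6PGCLCs by 1.24 ± 0.34 (adjusted p = 0.00793). For Phlda2, the difference of D6PGCLCs from ESCs (-1.11 ± 0.43, adjusted p = 0.0365) was lost in 4 of 6 fits without a single sample. The summed level of 7 trophoblast markers was lowest in EpiLCs, at 8.88 to 10.2 CPM against 21.6 to 26.0 CPM in ESCs and 23.4 to 28.3, 33.0 to 41.0 and 33.5 to 44.4 CPM in D2, D4 and D6PGCLCs, with Tpbpa at 0 in every sample. Of the 5 tested, 2 rose and 2 fell in EpiLCs, and 2, Gata3 and Hand1, were higher in D6PGCLCs than in D2PGCLCs with 0 lower, and their part in the Ascl2 levels was not tested. Slc22a18, a maternally expressed transporter gene, fell from 1.79 to 2.28 CPM in ESCs to 0.296 to 0.995 CPM in EpiLCs (-1.97 ± 0.66, adjusted p = 0.0173, lost without EpiLC replicate 2 or 3), on at most 68 counts.

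Among the genes of the Prader-Willi and Angelman region on chromosome 7, Snrpn and Magel2 were called. Snrpn, a paternally expressed splicing factor gene, had 21.8, 22.4 and 20 CPM in ESCs, 44.8, 40.6 and 48.4 CPM in EpiLCs and 27.3, 29 and 29.1 CPM in D2PGCLCs. D4PGCLCs had 20, 24.4 and 30.3 CPM and D6PGCLCs 11.1, 18.6 and 20.8 CPM. EpiLCs were above all other samples, by 1.06 ± 0.18 against ESCs on the log2 scale (adjusted p = 5.09e-05), and D6PGCLCs were at -1.40 ± 0.18 against EpiLCs (adjusted p = 1.67e-06). Gm38393 shares 27.3% of the Snrpn exon bases on the same strand and had 630 to 2839 counts, so that reads may be split between them. Magel2, a paternally expressed ubiquitin ligase regulator, had 12 counts over the 3 ESC samples and 195 over the 3 EpiLC samples, a scaled ratio of 15.5 (95% interval 8.69 to 30.6). In D6PGCLCs the ratio to ESCs was 7.81 (4.33 to 15.5).

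The remaining genes of that region kept within a log2 fold change of 1. Ube3a, the maternally expressed ubiquitin ligase, had 162 to 191 CPM in EpiLCs, above 109 to 128 CPM in ESCs and, in PGCLCs, 114 to 132 CPM at day 2 and 80.3 to 95.7 CPM at day 6. Its change from EpiLCs to D6PGCLCs, -0.97 ± 0.11 (adjusted p = 7.12e-07), lay just inside the threshold. Ndn, a paternally expressed growth suppressor, had 6.14 to 9.01 CPM in ESCs and 13 to 15 CPM in D6PGCLCs (0.85 ± 0.17, adjusted p = 0.000375). Mkrn3, which restrains puberty onset, and Peg12 had 4.15 to 7.97 CPM and 2.57 to 6.24 CPM over all samples.

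Plagl1 (Zac1), a paternally expressed zinc finger gene that regulates other imprinted genes, fell most of all imprinted genes tested on leaving the ESC state. ESCs had 187, 201 and 172 CPM and EpiLCs 6.89, 6.54 and 5.06 CPM. D2PGCLCs had 3.98, 3.98 and 3.21 CPM, D4PGCLCs 4.34, 3.16 and 4.47 CPM and D6PGCLCs 8.15, 6.78 and 7.34 CPM. No later sample came near the ESC range. The log2 fold change was -4.92 ± 0.14 in EpiLCs and -4.65 ± 0.14 in D6PGCLCs, both against ESCs (adjusted p = 5e-15 and 1.6e-14). The rise from D2 to D6PGCLCs, 1.00 ± 0.14 (adjusted p = 3.48e-05), was marginally under the fold threshold.

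Nnat, the paternally expressed neuronatin gene that lies within an intron of Blcap, had 3.79, 4.08 and 2.75 CPM in ESCs and 33.9, 31.6 and 30.8 CPM in EpiLCs. D2PGCLCs had 1.01, 1.72 and 1.2 CPM, D4PGCLCs 0.364, 0.874 and 0.773 CPM, and D6PGCLCs 0, 0.881 and 0.454 CPM, the 0 being replicate 1. EpiLCs were above and PGCLCs below every ESC sample. The rise was 3.18 ± 0.39 and the fall in D2PGCLCs -4.62 ± 0.43 on the log2 scale (adjusted p = 1.65e-06 and 4.78e-08). D6PGCLCs were at -2.92 ± 0.48 against ESCs (adjusted p = 4.5e-05), and at -2.34 without D6PGCLC replicate 1. Their difference from D2PGCLCs (-1.49 ± 0.51, adjusted p = 0.0289) was lost without that sample (-0.92). Of 6 neural markers, 3 of the 5 tested rose in EpiLCs, their sum was 80.1 to 101 CPM there and 86.6 to 91.7 CPM in ESCs, Neurog2 was at 0 in both, and their part in the Nnat level was not tested. Blcap, the isoform-dependent host gene, had 20.9 to 23.1 CPM in ESCs and 11.9 to 13.7 CPM in EpiLCs, the opposite direction (-0.76 ± 0.14, adjusted p = 0.000187).

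Nap1l5, a paternally expressed retrogene inside an intron of Herc3 that encodes a nucleosome assembly protein, had 0.803, 0.263 and 0.972 CPM in ESCs and 7.23, 5.36 and 5.87 CPM in EpiLCs. D2PGCLCs had 1.04, 0.752 and 0.78 CPM, D4PGCLCs 1.55, 0.904 and 1.58 CPM and D6PGCLCs 0, 0.991 and 1.81 CPM, with the 0 again in replicate 1. EpiLCs were above all others, by 3.14 ± 0.69 against ESCs and with a fall of -2.83 ± 0.66 in D2PGCLCs on the log2 scale (adjusted p = 0.000773 and 0.00141). Its upstream stretch, chr6:58907127-58907261 on the minus strand, has the hexamer 24 bases before the start.
Nap1l5: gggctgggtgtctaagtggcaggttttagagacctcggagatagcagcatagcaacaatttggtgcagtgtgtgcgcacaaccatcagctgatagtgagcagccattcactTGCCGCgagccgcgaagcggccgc

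Trappc9, the maternally expressed trafficking gene that hosts Peg13, was the single imprinted gene besides H19 called higher in D2PGCLCs. It had 27.9, 25.3 and 27.6 CPM in ESCs, 13.5, 14.8 and 12.5 CPM in EpiLCs and 36.6, 31.6 and 36.9 CPM in D2PGCLCs. D4PGCLCs had 38.5, 45.9 and 37.9 CPM and D6PGCLCs 49, 38.4 and 37.2 CPM. EpiLCs were the lowest group and all PGCLCs were above ESCs. From EpiLCs to D2PGCLCs the log2 fold change was 1.36 ± 0.12 (adjusted p = 2.68e-08) and to D6PGCLCs 1.61 ± 0.12 (adjusted p = 2.52e-09), while the fall in EpiLCs, -0.98 ± 0.12 (adjusted p = 1.77e-06), was inside the fold threshold. Peg13, the paternal noncoding RNA in its intron, had 29 to 115 counts and was not called.

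Inpp5f, a phosphatidylinositol phosphatase gene with a paternally expressed isoform, had 12.1, 13.1 and 13.6 CPM in ESCs and 42.5, 42.3 and 41.2 CPM in EpiLCs. D2PGCLCs had 23.3, 21.6 and 19.7 CPM, D4PGCLCs 22.9, 17.9 and 18.4 CPM and D6PGCLCs 23.8, 21.1 and 24.3 CPM. ESCs, EpiLCs and PGCLCs did not overlap, and the rise in EpiLCs was 1.70 ± 0.12 on the log2 scale (adjusted p = 5.1e-10). Gnas, the stimulatory G protein locus with maternal, paternal and biallelic isoforms, dipped at day 2. ESC samples had 124, 122 and 115 CPM and EpiLC samples 112, 111 and 99.3 CPM. D2PGCLCs had 51.7, 47.4 and 54.7 CPM, D4PGCLCs 75, 81.5 and 93.2 CPM and D6PGCLCs 103, 100 and 89.8 CPM. D2PGCLCs were below every other sample, at -1.07 ± 0.09 against EpiLCs (adjusted p = 1.38e-08), and D6PGCLCs overlapped EpiLCs again.

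Zdbf2, a paternally expressed regulator of body size, fell late. It had 129, 150 and 137 CPM in ESCs, 136, 178 and 152 CPM in EpiLCs and 173, 118 and 135 CPM in D2PGCLCs. D4PGCLCs had 119, 87.7 and 76.5 CPM and D6PGCLCs 58.6, 75.9 and 72.6 CPM. The D6PGCLC samples were below all others, at -1.17 ± 0.16 against EpiLCs, -1.01 ± 0.16 against ESCs and -1.04 ± 0.16 against D2PGCLCs on the log2 scale (adjusted p = 3.48e-06, 2.37e-05 and 4.62e-05). Without D6PGCLC replicate 1 they were -1.05, -0.89 and -0.93, so that the last 2 were inside the fold threshold. The difference from ESCs was also lost without ESC replicate 2 (-0.95), and that from D2PGCLCs without D2PGCLC replicate 1 (-0.88). Its upstream RefSeq window, trimmed to chr1:63200108-63200312 on the plus strand, lies before the counted gene model (chr1:63273265-63314576) and has 3 matches to the hexamer.
Zdbf2: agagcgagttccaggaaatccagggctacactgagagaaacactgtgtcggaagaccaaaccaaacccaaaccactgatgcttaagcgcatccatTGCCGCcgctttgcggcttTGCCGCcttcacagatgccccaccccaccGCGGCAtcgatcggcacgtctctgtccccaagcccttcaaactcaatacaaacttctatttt

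Other tested imprinted genes were not called in any comparison. Gab1, a signalling adaptor, and Impact, a regulator of translation, were among the most abundant, at 239 to 375 CPM and 189 to 346 CPM. Sfmbt2, a Polycomb protein gene, came close in D2PGCLCs, with 83.4 to 103 CPM against 42 to 56 CPM in EpiLCs (0.94 ± 0.12, adjusted p = 3.98e-06). Grb10, a growth-restraining adaptor, varied between replicates, with 15.5, 6.88 and 25.5 CPM in D2PGCLCs and 21.8, 16.6 and 40.1 CPM in D6PGCLCs. Zrsr1 (31.9 to 43.3 CPM) and Mcts2 (5.73 to 12.2 CPM) are retrocopies of Zrsr2 and Mcts1, which had 1727 to 4050 and 354 to 627 counts, so that reads could be divided between the copies. Commd1 and H13, within which they lie, had 99 to 212 and 606 to 1281 counts. Rasgrf1, a guanine nucleotide exchange factor, had at most 3 counts in a sample.

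**Figure D3:**
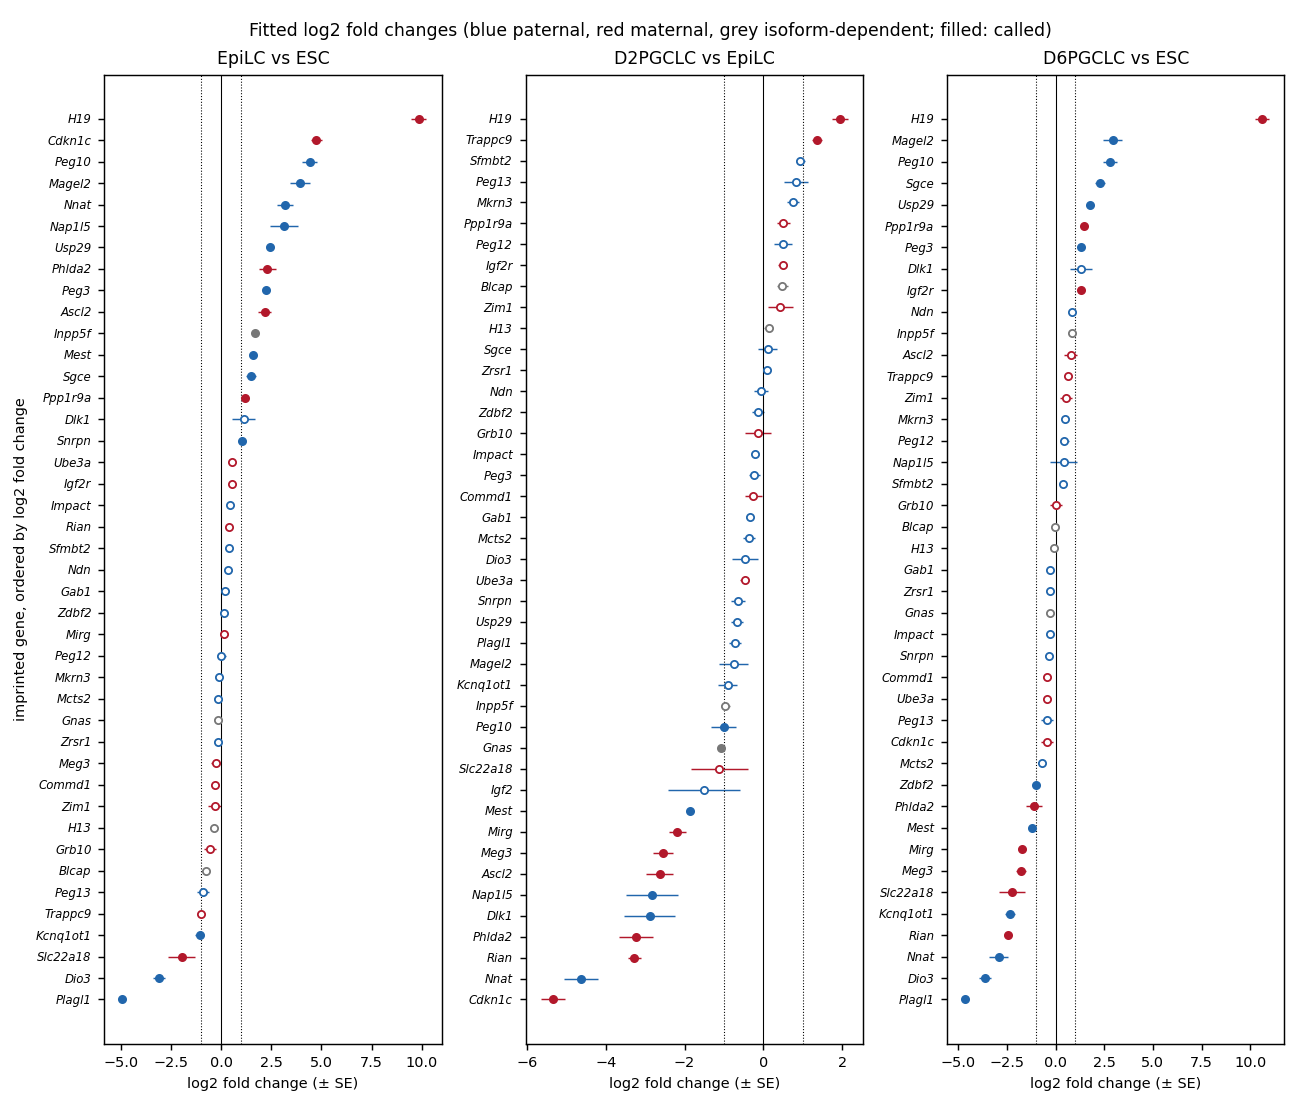
Fitted log2 fold changes (points, with SE bars) of the imprinted genes tested, ordered by value, in EpiLCs against ESCs, D2PGCLCs against EpiLCs and D6PGCLCs against ESCs. Colours mark the allele normally expressed, filled points are called, dotted lines stand at -1 and 1, and Igf2 is left out against ESCs, where it had 0 counts. In the middle panel 2 points are called on the right, H19 and Trappc9, and 12 on the left.

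By parental allele, both classes rose and fell. In EpiLCs against ESCs, 10 of 24 paternal genes tested were called higher and 3 lower, and 5 of 15 maternal genes higher and 1 lower (14.4% and 11.9% of all genes), with median log2 fold changes of 0.41 and 0.41. In D2PGCLCs against EpiLCs, 0 paternal genes were higher and 5 lower, and 2 maternal genes were higher and 6 lower (11.0% and 14.4% of all genes), with medians of -0.42 and -0.47. In D6PGCLCs against ESCs the counts were 6 higher and 6 lower for paternal genes and 3 higher and 5 lower for maternal genes (15.8% and 10.3% of all genes). Whether the classes differ was not tested.

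Summed over the 26 paternal genes, ESCs had 1500 ± 66.5 CPM and EpiLCs 3030 ± 196 CPM (SD, n = 3 here and for the sums that follow), D2PGCLCs had 2035 ± 94.5, D4PGCLCs 1653 ± 220 and D6PGCLCs 1369 ± 122 CPM. Few genes made up these sums, with Peg3, Mest and Peg10 giving 63.3% in EpiLCs. Summed over the 15 maternal genes, ESCs had 449 ± 15.9 CPM, EpiLCs 771 ± 21.5, D2PGCLCs 889 ± 119, D4PGCLCs 538 ± 64.1 and D6PGCLCs 645 ± 59.2 CPM. H19 alone gave 51.6% of the maternal sum in D2PGCLCs, and the sums are a description with no test. The classes follow the listed allele, and these counts do not measure whether a gene was imprinted in these cells. That holds too for Gab1 and Ube3a, which gave 20.7% of the paternal and 26.4% of the maternal sum in ESCs. For H19 and Snrpn, the authors sequenced bisulfite-treated DNA of cells from day 6 aggregates. They reported reduced methylation of the differentially methylated regions in eGFP+ cells and a more methylated state in eGFP-negative cells.

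**Figure D4:**
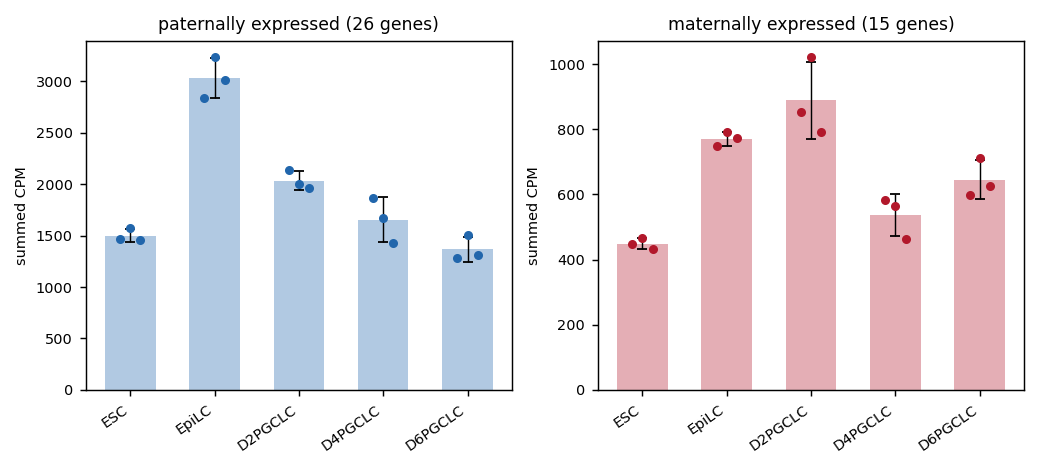
Summed CPM of the paternally expressed (26 genes) and maternally expressed (15 genes) imprinted genes, with bars for the mean, error bars for the SD and points for the 3 samples of each group. The paternal sum is highest in EpiLCs, at 2842 to 3234 CPM, and the maternal sum is highest in D2PGCLCs, at 791 to 1021 CPM, where its lowest sample lies within the EpiLC range of 749 to 792 CPM.

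Other genes of imprinted domains were counted from a list of 36, of which 28 were tested. In EpiLCs against ESCs, 8 were higher and 3 lower (14.4% and 11.9% of all genes), and in D2PGCLCs against EpiLCs, 2 were higher and 9 lower (11.0% and 14.4% of all genes). Calcr, the calcitonin receptor gene near Peg10, had 0 to 3 counts per ESC sample, 68 to 103 per EpiLC sample and 6 to 9 at day 2, a fall of -3.79 ± 0.65 on the log2 scale at the last step (adjusted p = 6.83e-05). Cobl, an actin nucleator gene near Grb10, fell in EpiLCs (-4.23 ± 0.14, adjusted p = 1.87e-14), where Atp10a, near Ube3a, rose (3.54 ± 0.18, adjusted p = 6.75e-12). Dcn, an extracellular matrix gene, was at 0 in ESCs, at 134 to 180 counts in EpiLCs and at 0 to 3 counts in PGCLCs. In D6PGCLCs, 9 were higher and 4 lower than in ESCs (15.8% and 10.3% of all genes), and 4 higher and 5 lower than in EpiLCs (15.9% and 12.0% of all genes). Within the PGCLC course, 0 were called between successive days, and 5 were higher and 1 lower at day 6 than at day 2 (10.9% and 2.75% of all genes).

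A list of 19 factors that set, keep or remove imprint marks, Tet1, Tet2, Tet3 and Tdg among them, was tested in full. Of these, 3 were called higher and 2 lower in EpiLCs against ESCs (14.4% and 11.9% of all genes). In D2PGCLCs against EpiLCs, 2 were higher and 4 lower (11.0% and 14.4% of all genes). In EpiLCs, the de novo methyltransferase genes Dnmt3a (3.79 ± 0.19, adjusted p = 8.54e-12), Dnmt3b (3.54 ± 0.15, adjusted p = 6.9e-13) and Dnmt3l rose, while Tet2, a methylcytosine oxidase gene, and Zfp57 (-2.34 ± 0.10, adjusted p = 1.22e-12) fell. In D2PGCLCs the methyltransferase genes and Tet3 fell, with Dnmt3b at -4.94 ± 0.16 (adjusted p = 4.18e-14), while Tet2 and Dppa3 rose. D6PGCLCs had Dppa3 higher (3.14 ± 0.12, adjusted p = 2.99e-13) and Uhrf1, Dnmt3b, Eed and Tet2 lower than ESCs (15.8% and 10.3% of all genes), and 3 factors higher and 3 lower than EpiLCs (15.9% and 12.0% of all genes). Between PGCLC days 0 of the 19 were called. PGCLCs were sorted by a reporter of Dppa3 itself, so selection of cells and a change within cells cannot be told apart for this gene. Zfp57 stood at 393 ± 9.72 CPM in ESCs, 77.3 ± 10.9 in EpiLCs and 206 ± 10.6 in D6PGCLCs (SD, n = 3).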

How the data were processed

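The authors deposited a table of raw read counts per Ensembl gene for all samples, and per the labels reads were trimmed, checked and aligned with Trim Galore, FastQC and STAR to mm10 (versions not given). The library kit marks strand, but the strand and multi-mapping settings of the counting are not given in the sources used here. Symbols and coordinates came from GENCODE M21, in which all 55536 identifiers matched. Genes were filtered with filterByExpr (minimum 10 counts), scaled by TMM and fitted with edgeR 4.0.16 in R 4.3.3 (quasi-likelihood, 1 coefficient per group over 15 samples, Benjamini-Hochberg adjustment over 18090 genes). SEs were derived from the F statistics. Calls combined an adjusted p below 0.05 with a fold change beyond 1 in log2. Genes called at least once with a mean of 100 or more counts in their highest group are given in full. The members and lists were chosen with earlier results of these data known. Alternatives were DESeq2 1.42.0, its size factors, no filter, no fold cutoff, only 2 groups, a replicate block, and each sample left out. Deviations from the group means correlated above 0.1 in all 3 same-numbered pairs of D2 and D4PGCLCs. The labels do not say that replicate numbers pair samples. Deviations from a mean offset each other within a group, so these correlations do not establish pairing. With D6PGCLCs fewer pairs were over 0.1. Of 3 pairs, 2 were over 0.1 for D4 and D6PGCLCs (up to 0.208) and 1 for D2 and D6PGCLCs (0.178). No pair with ESCs or EpiLCs was over 0.1. The fitting was tested on simulated data. Intervals cover counting error only. Promoters and miRNAs are RefSeq sequences (GRCm38.p6). Besides the lists of imprinted neighbours and imprint factors, marker lists were summed, and 6 mesoderm markers summed to 15.8 to 18.2 CPM in ESCs and 0.158 to 1.58 CPM elsewhere.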

Additional observations from a re-analysis of the deposited data

How the results depend on the processing

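Of 75 calls of an imprinted gene in a comparison, all 75 were kept with DESeq2's size factors in edgeR and with the replicate block. DESeq2 lost 1 (Nnat, D6 against D2PGCLCs), no filter on low counts lost 1 (Peg10, D2PGCLCs against EpiLCs, at -0.99), fits of only the 2 groups compared lost 3 (Nnat, D6 against D2PGCLCs, and Phlda2 and Zdbf2, D6PGCLCs against ESCs, with 2 of the 75, both of Igf2, not tested), and 10 were lost in at least 1 fit without a sample. DESeq2, and its size factors in edgeR, each added 4. These were Inpp5f, D2PGCLCs against EpiLCs, Plagl1, D6 against D2PGCLCs, and Ube3a and Magel2, D6PGCLCs against EpiLCs. In that last comparison DESeq2 had 15 lower in place of 13, and 2472 in place of 2164 over all genes. Fits of only the 2 groups added 2 (Plagl1 and Magel2). None of these settings reversed a call. The counts in each direction were the same with the replicate block, for example 16 higher and 4 lower in EpiLCs against ESCs. Deviations of the 30 same-numbered pairs correlated at a mean of 0.0358, with 6 over 0.1, all between PGCLC groups, against -0.0179 and 0 of the 60 other pairs. Centring on group means ties these 2 means to each other, so their contrast is not a test of pairing. All 3 pairs were over 0.1 for D2 and D4PGCLCs alone, and the block changed no call there or elsewhere. Of the samples, 8 of 15 correlated best with their own number.

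With no fold-change cutoff the counts grew, as did those of all genes. EpiLCs against ESCs then had 21 higher and 8 lower (26.3% and 26.2% of all genes). D2PGCLCs against EpiLCs had 8 higher and 20 lower (27.2% and 26.0%). D4 against D2PGCLCs had 1 higher and 6 lower (7.26% and 4.6%), and D6 against D4PGCLCs 3 higher and 3 lower (6.03% and 6.82%). D6 against D2PGCLCs had 7 higher and 9 lower (19.5% and 18.2%). D6PGCLCs against ESCs had 14 higher and 17 lower (27.7% and 26.0%), and D6PGCLCs against EpiLCs 8 higher and 21 lower (30.2% and 27.2%). Leaving out single samples gave 16 to 17 higher and 3 to 4 lower in EpiLCs against ESCs (2458 to 2549 and 2028 to 2068 over all genes). In D2PGCLCs against EpiLCs it gave 2 to 3 higher and 11 to 13 lower (1841 to 1971 and 2329 to 2589 over all genes). D4 against D2PGCLCs had 0 to 1 higher and 1 to 2 lower (342 to 472 and 34 to 81), the 1 without D2PGCLC replicate 3 and the 2 without D4PGCLC replicate 2. D6 against D4PGCLCs had 0 to 1 higher, the 1 without D4PGCLC replicate 3, and 0 to 0 lower (313 to 448 and 94 to 218). D6 against D2PGCLCs had 3 to 4 higher and 1 to 5 lower (1627 to 1948 and 424 to 637). D6PGCLCs against ESCs had 8 to 10 higher and 9 to 11 lower (2730 to 2998 and 1698 to 2006). D6PGCLCs against EpiLCs had 1 to 2 higher, the 2 without EpiLC replicate 2, and 13 to 14 lower (2830 to 2990 and 1983 to 2378). Igf2, Airn and Rasgrf1 had at most 24, 9 and 3 counts per sample, so that depth limits what can be said of them.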
